A study of Homo sapiens with 12 samples.

Results

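The response of OVCAR8 cells to *SIVA* constructs was taken as the genes that stood at least 2-fold away from control, in the same direction, in both *SIVA* transfectants. OVCAR8 is a human cell line from a high-grade serous ovarian carcinoma. Of the 57187 genes in the count table, 13524 had at least 50 counts in 1 of the 3 OVCAR8 libraries, and 50 of these met the rule. In 45 of them both transfectants were higher than control, and in 5 both were lower. The 2-fold rule used the OVCAR8 ratios themselves, so these are given as a description with no test, while the same ratios in the other 3 lines were not used by the rule.

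The RNA came from 4 cancer cell lines, OVCAR8 and SKOV3 (ovarian) and MDA-MB-231 and HCC1954 (breast), with 3 libraries each and 12 in all. OVCAR8 and SKOV3 are spelled OVAR-8 and SKOV-3 in the sample labels. The control cells are labelled parental with no treatment, whereas the study describes its controls as empty vector (EV), so they are called control here. The other 2 libraries of each line came from cells transfected with wild-type *SIVA* (*SIVA-WT*) or with *SIVA-D160N*, whose product has asparagine in place of aspartate. The transfectants were polyclonal and stably selected with hygromycin, and the constructs were driven by the CMV promoter. If the control was parental, transfection, selection and *SIVA* cannot be told apart. With 1 library per group, a difference within OVCAR8 has no replicate check, and the 95% intervals given below (exact binomial, for the ratio of a pair of counts) cover counting error only.

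*SIVA1* encodes SIVA, a small protein first described as a partner of the death receptor CD27 and later of p53, MDM2, TRAF2 and other signaling proteins. Several of these partners act on NF-κB, a family of dimeric transcription factors built from the Rel proteins (RELA, RELB, REL, NFKB1 and NFKB2). NF-κB switches on cytokines such as interleukin-1 and feedback genes such as *BIRC3* and *TNFAIP3*, and interleukin-1 in turn activates NF-κB in the cells that receive it. In epithelial tumors, interleukin-1 from the tumor cells is known to act on the cells themselves and on the stroma around them.

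The promoters shown here belong to 4 of the 45 genes that were higher in both transfectants, namely both interleukin-1 genes, the Rel gene *REL* and the NF-κB target *BIRC3*. They are RefSeq sequences on GRCh38.p14, each 300 bases on the gene's own strand, from 250 bases before the gene's start to 50 after it. Capitals mark matches to the NF-κB consensus in either orientation. *BIRC3* held 2 matches, the first from 199 bases before the start, *REL* held 2 overlapping matches from 47 bases before the start, and *IL1A* and *IL1B* held none in this window. RefSeq gives *IL1A* a second, overlapping promoter, which held none either and is not shown. Of 35116 promoters of the same length, 11.3% held a match, so that a match describes the letters and not a used site.
IL1A (chr2:112784444-112784743, minus strand): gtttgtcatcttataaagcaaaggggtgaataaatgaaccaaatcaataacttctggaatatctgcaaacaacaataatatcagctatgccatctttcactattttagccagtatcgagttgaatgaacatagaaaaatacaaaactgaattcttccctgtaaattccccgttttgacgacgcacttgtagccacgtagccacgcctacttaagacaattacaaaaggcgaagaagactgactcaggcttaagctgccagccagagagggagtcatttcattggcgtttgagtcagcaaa
IL1B (chr2:112836730-112837029, minus strand): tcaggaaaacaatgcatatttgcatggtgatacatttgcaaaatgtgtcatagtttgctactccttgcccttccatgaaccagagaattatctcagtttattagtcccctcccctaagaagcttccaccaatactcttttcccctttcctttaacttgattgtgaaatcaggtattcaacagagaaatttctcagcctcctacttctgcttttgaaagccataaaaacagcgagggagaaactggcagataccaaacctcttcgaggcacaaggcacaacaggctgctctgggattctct
REL (chr2:60881324-60881623, plus strand): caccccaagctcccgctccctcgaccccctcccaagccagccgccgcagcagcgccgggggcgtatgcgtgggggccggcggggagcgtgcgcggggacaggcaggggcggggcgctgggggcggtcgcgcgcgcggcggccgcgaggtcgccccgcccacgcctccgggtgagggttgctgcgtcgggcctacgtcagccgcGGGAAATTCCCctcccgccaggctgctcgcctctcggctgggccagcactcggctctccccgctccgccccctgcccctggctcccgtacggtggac
BIRC3 (chr11:102317234-102317533, plus strand): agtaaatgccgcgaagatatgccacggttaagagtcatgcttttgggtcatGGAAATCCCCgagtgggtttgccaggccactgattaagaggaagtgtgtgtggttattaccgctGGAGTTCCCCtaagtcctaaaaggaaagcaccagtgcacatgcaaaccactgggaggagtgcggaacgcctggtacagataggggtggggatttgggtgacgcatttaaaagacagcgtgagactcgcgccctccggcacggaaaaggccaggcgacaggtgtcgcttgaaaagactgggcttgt

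The 3 OVCAR8 libraries held 38246505 (control), 37938618 (*SIVA-WT*) and 38629881 (*SIVA-D160N*) counts, within the range of 35791455 to 45890398 over all 12 libraries. Their log2 expression correlated with each other at 0.987 or more and with the other lines at 0.767 or less, over the 13524 genes. The ovarian and epithelial markers *PAX8* (2335 to 2787 counts), *MSLN* (3268 to 4135), *WT1* (224 to 249), *KRT7*, *KRT8*, *KRT18* and *EPCAM* were present, while *MECOM* and *EMX2* were at 0 and *SOX17*, *ESR1*, *MUC16* and *KRT19* had at most 3 counts in each OVCAR8 library. *PTPRC* and *CD3E*, which mark leukocytes, were at 0, and *CDH5*, which marks endothelium, had at most 2. Other marker genes were detected, with 4 to 69 counts of *PECAM1*, 7 to 18 of *CDH1* and 7148 to 12401 of *COL1A1*.

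The OVCAR8 ratios were narrow compared with those of the other lines. Their standard deviation over genes was 0.28 (*SIVA-WT*) and 0.36 (*SIVA-D160N*) on the log2 scale, against 0.36 and 0.50 in MDA-MB-231, 0.37 and 0.63 in HCC1954 and 0.41 and 0.53 in SKOV3. The rule applied to each line's own genes gave 159 genes in MDA-MB-231, 155 in HCC1954 and 360 in SKOV3, in place of 50. In OVCAR8 the genes higher in both transfectants were 0.333% of those tested and the genes lower in both were 0.037%. Taken alone, *SIVA-WT* was at least 2-fold higher for 62 genes (0.458%) and at least 2-fold lower for 21 (0.155%), and *SIVA-D160N* for 103 (0.762%) and 27 (0.2%). Both ratios share the control library, so what is particular to that library enters both.

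*SIVA1* (ENSG00000184990, chromosome 14 from 104753147 to 104759654 on GRCh38) had 2419 counts in control, 6723 in *SIVA-WT* and 6150 in *SIVA-D160N*. Counts from the vector and from the cells' own gene cannot be told apart in this table. The log2 ratio to control was 1.41 (95% interval 1.35 to 1.48) for *SIVA-WT* and 1.28 (1.21 to 1.35) for *SIVA-D160N*. By the smaller of its 2 ratios *SIVA1* ranked 22 of the 45 genes that were higher in both transfectants. By this measure alone 21 genes stood farther from control than the transfected gene itself. Some of the 21 had a smaller *SIVA-WT* ratio than *SIVA1*, among them *ADGRL2* (1.39) and *REL* (1.33).

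The largest ratios belonged to interleukin-1 and to a receptor of another cytokine. *IL1B*, which encodes interleukin-1β, had 199 counts in control, 1470 in *SIVA-WT* and 1235 in *SIVA-D160N*. Its log2 ratios were 2.81 (2.61 to 3.04) and 2.56 (2.35 to 2.79), which is 7.03-fold and 5.88-fold. *IL1A*, whose product interleukin-1α signals through the same receptor, had 75, 315 and 365 counts in the same order, with ratios of 1.98 (1.64 to 2.39) and 2.19 (1.85 to 2.59). The genes lie 45.3 kb apart on chromosome 2 and were the only pair of members with a RefSeq entry, other than *TRHDE* with *TRHDE-AS1*, *ZNF283* with *ZNF221* and *AC092835.2* with *ANKRD36C*, within 1 Mb of each other. *IL13RA2*, a decoy receptor that binds interleukin-13 without the usual signaling chain, had 14 counts in control, 93 in *SIVA-WT* and 165 in *SIVA-D160N*. Its ratios of 2.52 (1.85 to 3.60) and 3.33 (2.70 to 4.39) rest on the 14 control counts, and their intervals are wide. *IL1B*, *IL13RA2* and the noncoding *PWAR5* were the 3 genes at least 4-fold above control in both transfectants.

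The remaining genes of the interleukin-1 system, chosen after their values were seen, showed smaller differences. *IL1R1*, the signaling receptor, had 239, 287 and 313 counts (control, *SIVA-WT*, *SIVA-D160N*), and its partner *IL1RAP* had 189, 224 and 196. *IL1R2*, a decoy receptor, had lower counts in both transfectants, with 88 counts in control, 51 in *SIVA-WT* and 56 in *SIVA-D160N* and log2 ratios of -0.82 and -0.70. The receptor antagonist *IL1RN* was at 0 in all 3 libraries and the processing enzyme *CASP1* had 5 to 7 counts, so neither could be compared at this depth. *IL18*, a related cytokine, had 8977, 8084 and 8758 counts. For *IL13RA2* the partner receptors *IL13RA1* (ratios 0.16 and 0.27) and *IL4R* (0.06 and 0.09) stayed within 0.3 of control on the log2 scale.

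Of 6 measured genes of the Rel family, also grouped after their values were seen, *REL* and *NFAT5* were members of the response. That is 33.3%, against 0.333% of all genes higher in both, but a group formed with its values known gives this share no weight. After ratios were centred by transcript GC content and length, described below, *REL* still met the rule and *NFAT5* did not. *REL* encodes c-Rel and had 70 counts in control, 187 in *SIVA-WT* and 241 in *SIVA-D160N*, with ratios of 1.33 (0.95 to 1.77) and 1.69 (1.33 to 2.12). *NFAT5*, a Rel-domain factor known for the response to osmotic stress, had 1671, 3626 and 4052 counts and ratios of 1.06 and 1.21. The other Rel genes were closer to control. *RELB* had ratios of 0.43 and 0.50, *NFKB1* of 0.22 and 0.20, *NFKB2* of 0.18 and -0.02, and *RELA* of -0.04 and -0.17.

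A list of 38 NF-κB targets and cytokines had 22 measured genes, and 3 of them (13.6%), *IL1A*, *IL1B* and *BIRC3*, were at least 2-fold higher in both transfectants, against 0.333% of all genes tested. None was 2-fold lower. *BIRC3* encodes cIAP2, a ubiquitin ligase of TNF receptor signaling, and had 248 counts in control, 598 in *SIVA-WT* and 760 in *SIVA-D160N*, with ratios of 1.20 (0.99 to 1.43) and 1.54 (1.34 to 1.76). At 1.5-fold, 7 of the 22 (31.8%) were higher in both, against 2.23% of all genes, and 0 were lower, against 0.421%. The 4 that joined at this threshold were chemokines and a feedback gene. *CCL20* had 128, 252 and 294 counts, *CXCL1* had 65, 127 and 157, and *CXCL8* had 23, 38 and 84. *TNFAIP3*, which encodes the NF-κB inhibitor A20, had 94, 179 and 162. *CXCL8* passed the minimum count through *SIVA-D160N* alone. The *SIVA-WT* ratio of *CXCL8*, 0.62 (-0.12 to 1.48), did not separate from control by counting error. The place of *CXCL8* among the 7 is therefore uncertain. The list was not uniform, since *NFKBIA*, another inhibitor, had ratios of 0.17 and 0.16, *IL6* of 0.44 and 0.21, *LIF* of -0.12 and -0.27 and *IL11* of -0.26 and -0.72. Its median ratio was 0.38 in *SIVA-WT* and 0.26 in *SIVA-D160N*, beside -0.004 and -0.028 over all genes. Among the 33 lists with at least 10 measured genes, the next highest medians were 0.20 in *SIVA-WT* and 0.20 in *SIVA-D160N*.

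Interferon-stimulated genes gave 1 member in each direction. *IFIT2*, which encodes an RNA-binding antiviral protein, had 22 counts in control, 55 in *SIVA-WT* and 60 in *SIVA-D160N*. *IFI27*, another gene that interferon strongly induces in most cells, went the other way with 96, 43 and 42 counts and ratios of -1.18 (-1.77 to -0.69) and -1.22 (-1.82 to -0.72). Of 34 measured genes on the list, *IFIH1*, *DDX60*, *IFI44*, *SAMD9* and *IFIT2* were at least 1.5-fold higher in both and *IFI27* was lower, while *ISG15* (ratios 0.20 and 0.33) and *MX1* (0.22 and -0.14) lay near control. The 5 higher genes are 14.7% of the list, against 2.23% of all genes, and 0.421% of all genes were lower at 1.5-fold. At 2-fold the 1 higher gene is 2.94% of the list, against 0.333%, and 0.037% of all genes were lower. The list's median was 0.20 and 0.08.

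**Figure D1:**
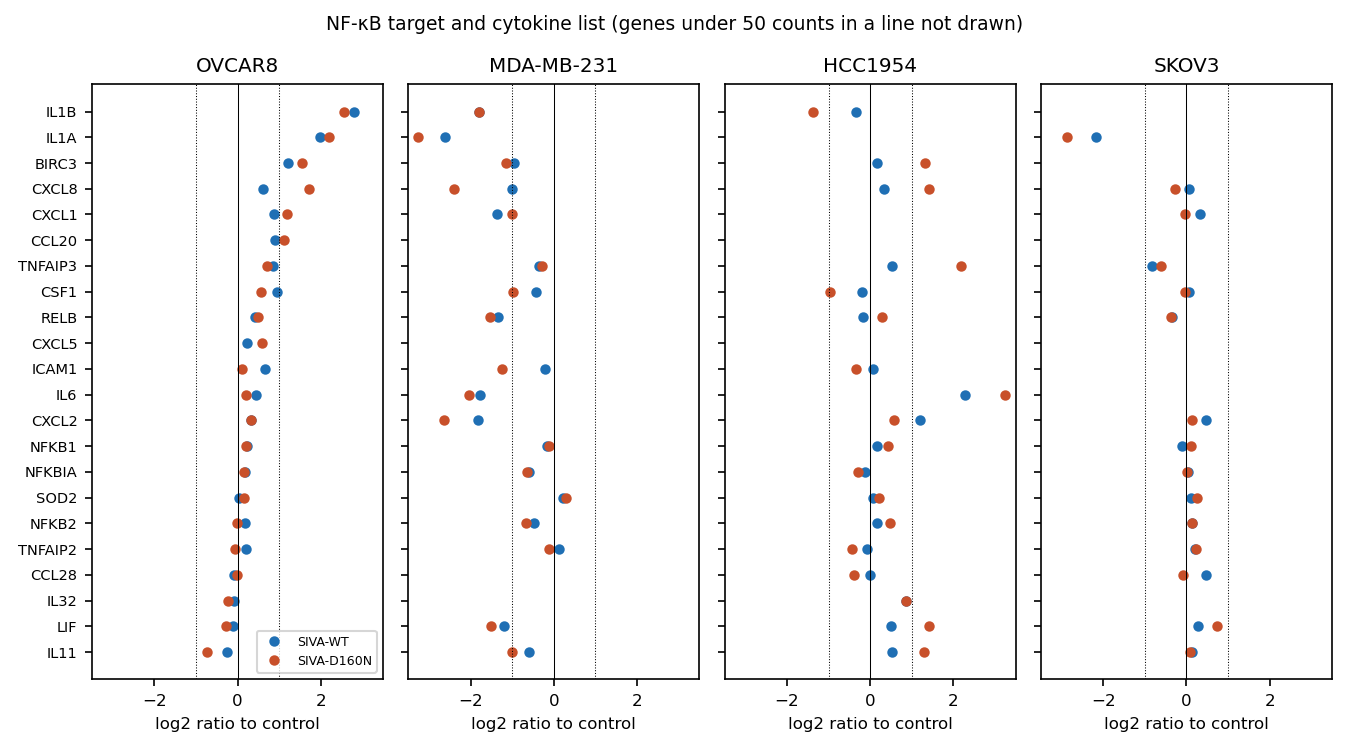
Log2 ratios to the control of the same line for the 22 measured genes of the NF-κB target and cytokine list in the 4 lines, *SIVA-WT* in blue and *SIVA-D160N* in orange, with dotted lines at 2-fold. *IL1B*, *IL1A* and *BIRC3* lie to the right of the dotted line in OVCAR8 and *IL1B* and *IL1A* to the left of it in MDA-MB-231.

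Beyond cytokines, the members held genes of the cell surface and the matrix. *TRHDE*, which encodes the ectoenzyme that degrades thyrotropin-releasing hormone, had 524 counts in control, 1853 in *SIVA-WT* and 2080 in *SIVA-D160N*, with ratios of 1.76 (1.62 to 1.90) and 1.92 (1.78 to 2.06). Its antisense transcript *TRHDE-AS1* (307, 841 and 811 counts) lies within the *TRHDE* gene, and since the strand setting of the counting is not given in the sources used here, their reads cannot be told apart with certainty. *ADGRL2*, an adhesion G protein-coupled receptor of the latrophilin family, had the highest counts of the 50, with 2754, 7551 and 8389 counts and ratios of 1.39 (1.33 to 1.46) and 1.54 (1.48 to 1.60). *ESM1*, which encodes the secreted proteoglycan endocan, had 437, 1278 and 1492 counts. *CDH11*, a mesenchymal cadherin, had 185, 455 and 469. *SEMA5A*, a guidance semaphorin, had 15, 51 and 48, so its ratios of 1.59 (0.85 to 2.64) and 1.5 (0.75 to 2.55) did not separate from 2-fold by counting error. *COL6A3*, a chain of the microfibrillar collagen VI, had 1494, 4257 and 3509 counts with ratios of 1.45 (1.36 to 1.54) and 1.16 (1.08 to 1.25), and was the only 1 of 17 measured collagens (5.88%) at 2-fold in both, against 0.333% of all genes. The other matrix lists held no member. They had 0 of 27 measured matrix glycoproteins and proteoglycans, 0 of 22 integrins and laminins and 0 of 23 matrix proteases and inhibitors. Lists of this size at the background share of 0.333% would hold under 1 member, so these counts do not set them apart. At 1.5-fold, 2 of the 22 (*ITGA4* and *ITGAV*) and 3 of the 23 (*MMP16*, *MMP1* and *SERPINB2*) were higher in both, against 2.23% of all genes. Of the 27, 0 were higher at 1.5-fold, and no gene of these lists was lower.

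Some further members encode regulators of transcription and trafficking. *RARB*, the retinoic acid receptor β, had 213, 469 and 490 counts (control, *SIVA-WT*, *SIVA-D160N*). *TRIM2*, a ubiquitin ligase, had 36, 93 and 115, and the cancer-testis gene *SPANXB1* had 91, 202 and 210. The large genes *NBEAL1* (228, 605 and 772) and *VPS13C* (591, 1272 and 1368), the latter a lipid transfer protein, were higher as well. Genes with few control counts were the heart factor *TBX20* (36, 86 and 121), the chromatin remodeler *CHD5* (19, 51 and 44) and *KCTD4* (36, 106 and 120). Zinc finger genes with a ZNF symbol gave 4 members, *ZNF221*, *ZNF283*, *ZNF483* and *ZNF724P*, out of 472 tested (0.847%), against 0.333% of all genes higher in both. After ratios were centred by transcript GC content and length, described below, *ZNF221* alone of the 4 still met the rule. *ZNF221* had 21, 65 and 67 counts, *ZNF283* had 439, 946 and 968, *ZNF483* had 53, 132 and 125 and *ZNF724P* had 41, 92 and 91. *AC092835.2*, which RefSeq names *ZNF892*, had 52, 121 and 130.

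Several members were noncoding or duplicated genes. *PWAR5*, a noncoding RNA of the imprinted Prader-Willi region on chromosome 15, had 57 counts in control, 285 in *SIVA-WT* and 371 in *SIVA-D160N*, with ratios of 2.23 (1.85 to 2.70) and 2.60 (2.23 to 3.06). The noncoding *LINC01204* had 347, 1013 and 1154. Of the 42 members with a RefSeq entry, 32 (76.2%) were protein coding, 3 (7.14%) long noncoding RNA genes, 6 (14.3%) pseudogenes and 1 a microRNA gene. Among the tested genes with an entry, 92.9% were protein coding, 4.31% long noncoding RNA genes and 2.58% pseudogenes. *CCDC144B* (29, 99 and 99 counts), *CCDC144A* (79, 225 and 266), *HERC2P3* (21, 72 and 81), *POTEF* (14, 45 and 57), *GUSBP2*, *ANKRD36C*, *HSPD1P11*, *FNBP1P1* and *KRT8P36* have near-identical copies, so their counts depend on how shared reads were assigned and are uncertain. The clone-named *RP11-219A15.1* (15, 49 and 53), with no RefSeq entry, completes the 10 genes with the largest smaller ratio. Further clone-named members were *RP11-1277A3.2* (43, 120 and 117), *AC226118.1* (32, 81 and 89), *AC112721.1*, *AC112721.2* and one more with 18, 43 and 56 counts.

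*MIR3153* was the microRNA gene, at chr9:89312225-89312306, with 19 counts in control, 54 in *SIVA-WT* and 57 in *SIVA-D160N*. The libraries were made from polyadenylated RNA, so these reads over the 82-base hairpin do not measure the mature microRNA. The RefSeq mature sequence is shown because it names what the hairpin would yield, with its seed (bases 2 to 8) in capitals.
hsa-miR-3153: gGGGAAAGcgaguagggacauuu

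Genes lower in both transfectants were few and mostly of low count. *RP5-1085F17.3*, a clone-named gene without a RefSeq entry, had 424 counts in control, 155 in *SIVA-WT* and 143 in *SIVA-D160N*, with ratios of -1.5 (-1.79 to -1.24) and -1.62 (-1.92 to -1.36). *GDA*, which encodes guanine deaminase, had 90, 20 and 41 counts and ratios of -2.13 (-3.01 to -1.52) and -1.17 (-1.77 to -0.65). The others were *IFI27*, given above, the keratin pseudogene *KRT8P36* (53, 21 and 24) and *CTD-2124B8.2* (51, 24 and 25). Apart from *RP5-1085F17.3*, these 4 genes had under 50 counts in both transfectants and passed the filter through the control library.

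**Figure D2:**
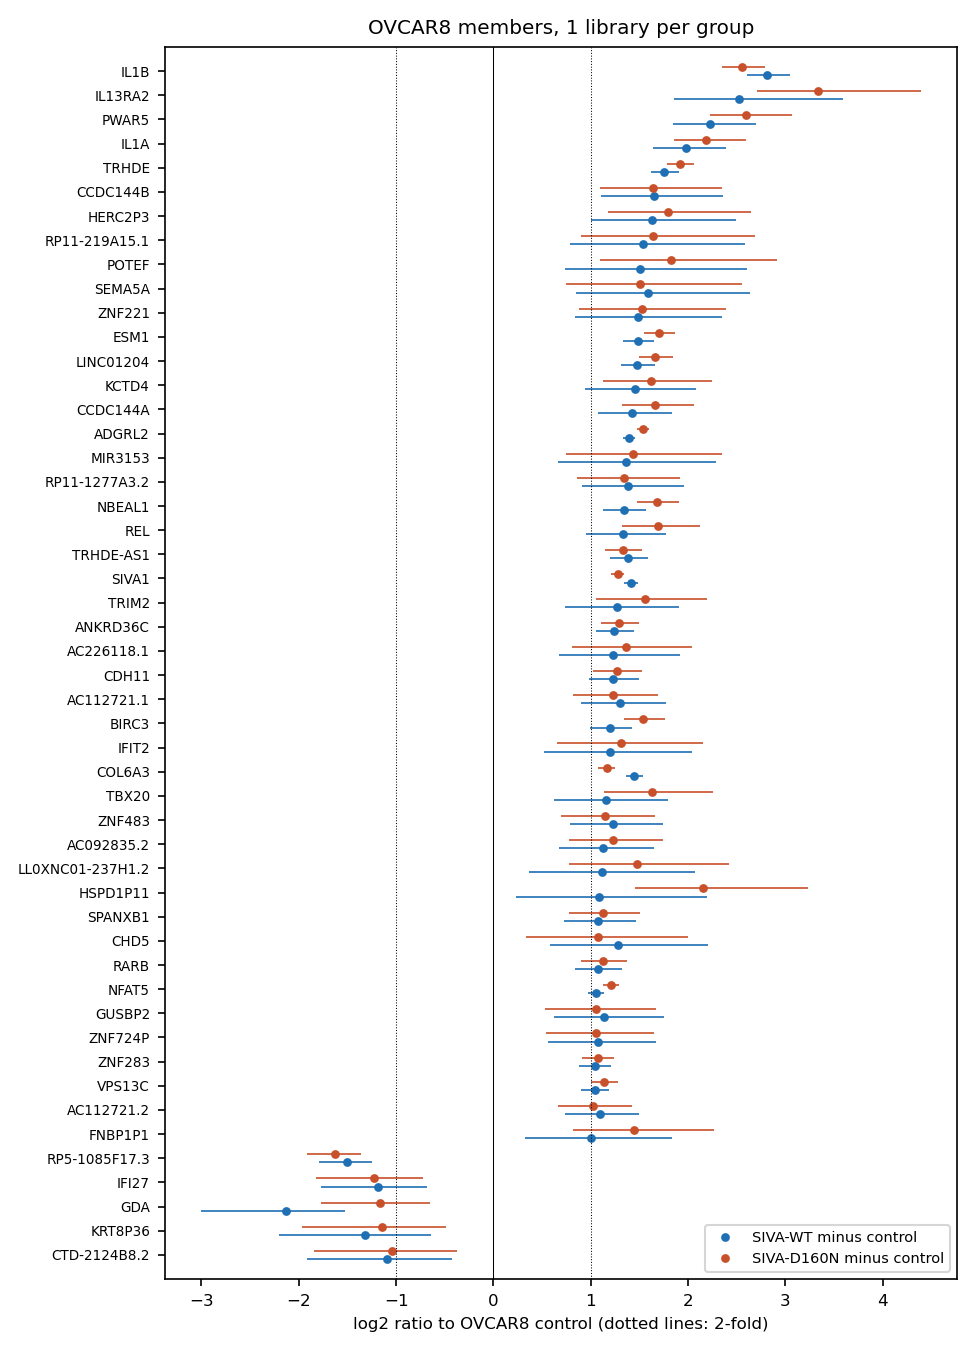
Log2 ratios of *SIVA-WT* (blue) and *SIVA-D160N* (orange) to control for the 50 members in OVCAR8, ordered by direction and by the smaller ratio, with 95% counting intervals as lines and dotted lines at 2-fold. *IL1B*, *IL13RA2* and *PWAR5* lie beyond 4-fold in both transfectants, and the intervals widen for genes with few counts.

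The median ratio of the 45 genes was 1.33 in *SIVA-WT* and 1.48 in *SIVA-D160N*. For 20 of them the control library had under 50 counts, so they passed the filter through a transfectant, and 15 of the 45 had both counting intervals beyond 2-fold. The median distance between the ratios of the 2 constructs was 0.14 on the log2 scale over the members and 0.12 over all tested genes, and the rule itself asked for both constructs to move the same way. *GDA*, *HSPD1P11* and *IL13RA2* were the 3 members at least 1.5-fold apart between the transfectants, and 32 of the 45 (71.1%) had the larger ratio in *SIVA-D160N*, as did 52.6% of all tested genes. Just inside the threshold were *FNBP1P1* (ratios 1.00 and 1.45), *AC112721.2* (1.10 and 1.02) and *VPS13C* (1.04 and 1.14). Just outside it were *GREM1*, a BMP antagonist with 2816, 5854 and 7754 counts (0.99 and 1.39), a clone-named gene (1.03 and 0.99) and *ZNF66* (0.97 and 1.31). On the lower side *CTD-2124B8.2* (-1.09 and -1.04) and *KRT8P36* (-1.32 and -1.15) lay just inside, with *GDA* next, and *WNT7B* (-1.04 and -0.99) and a pair of clone-named genes (-0.97 and -1.03, and -0.95 and -1.08) just outside.

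Other pathways tied to SIVA held few members. Of 28 measured genes of the BCL2 family and caspase list, which also holds inhibitors of apoptosis, *BIRC3* (3.57%) was at least 2-fold higher in both transfectants, against 0.333% of all genes, and none was 2-fold lower. At 1.5-fold it was joined by *BCL2A1*, an anti-apoptotic BCL2 relative with 44, 82 and 79 counts, so that 7.14% were higher, against 2.23%. The list's median ratios were 0.09 and 0.03. Of 22 measured p53 targets and of 14 measured TNF superfamily and death receptor genes, 0 were at least 1.5-fold away from control the same way in both transfectants. With 2.23% of all genes higher and 0.421% lower at 1.5-fold, lists of this size at the background share would hold under 1 such gene, so these counts do not set the lists apart. The p53 targets had median ratios of 0.02 and 0.03. Among 12 measured genes made up of *SIVA1* and its reported partners the only gene past 1.5-fold in both transfectants was *SIVA1*. The partner *XIAP* had ratios of 0.45 and 0.59, *TNFRSF9* of 0.62 and 0.51, *MDM2* of 0.04 and 0.13 and *TRAF2* of -0.27 and -0.35. In total 9 of the 39 lists held a member, and 10 of their 683 tested genes were members, against 0.37% of all tested genes.

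Technical measures moved with the OVCAR8 ratios. Over 13442 genes with a known transcript, the ratio was larger for longer transcripts (Spearman's rho 0.49 for *SIVA-WT* and 0.45 for *SIVA-D160N*) and smaller for transcripts of higher GC content (-0.26 and -0.59). These are correlations across genes that share libraries, and genes are not independent replicates. The fifth of genes with the lowest GC content had a median ratio 0.18 (*SIVA-WT*) and 0.48 (*SIVA-D160N*) above that of the fifth with the highest. Of the 50 members, 25 fell in the fifth of lowest GC content, under 40.4%, and their median GC content was 40.4% against 47.8% for all tested genes. After ratios were centred within 5 groups of GC content crossed with 5 of length, which was added after the data were seen, 34 of the 45 higher members and 3 of the 5 lower ones still met the rule. The interleukin-1 genes, *IL13RA2*, *PWAR5* and *REL* were among the 34, and *BIRC3*, *NFAT5*, *RARB*, *CDH11*, *TRIM2*, *VPS13C*, *ANKRD36C* and the zinc finger genes *ZNF283*, *ZNF483*, *ZNF724P* and *AC092835.2* were not.

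**Figure D3:**
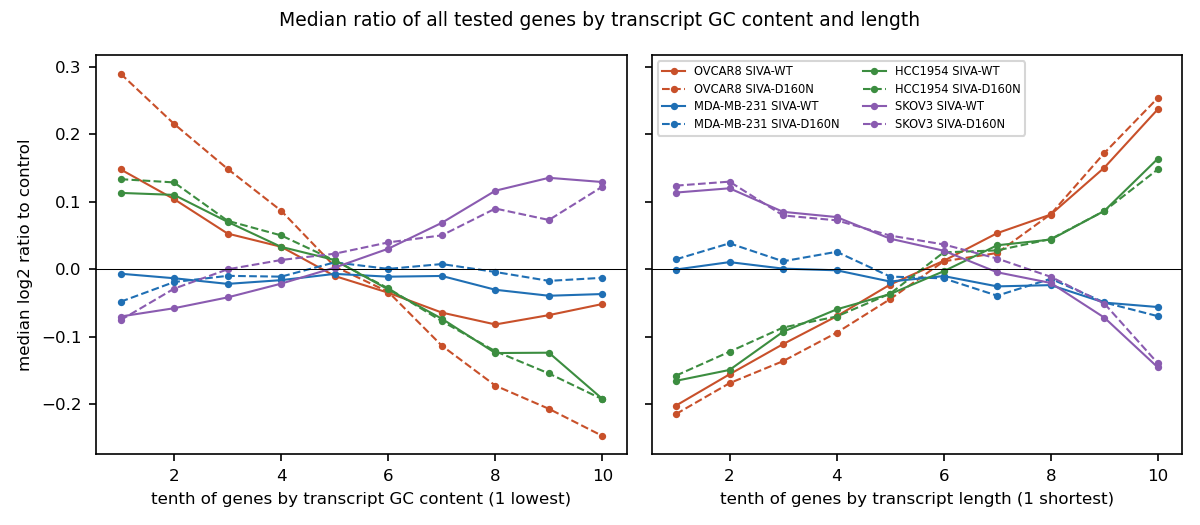
Median log2 ratio to control of all tested genes in 10 equal groups by transcript GC content (left) and by transcript length (right), one line per transfectant, solid for *SIVA-WT* and dashed for *SIVA-D160N*. In OVCAR8 and HCC1954 the medians run down with GC content and up with length, in SKOV3 the other way, and in MDA-MB-231 they stay near 0.

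The OVCAR8 *SIVA-D160N* library stood apart in RNAs that mostly lack a poly(A) tail. The spliceosomal U4 genes *RNU4-1* and *RNU4-2* had 80 and 158 counts there and at most 1 in the other OVCAR8 libraries. *SNORD3A*, the U3 small nucleolar RNA, had 3352 against 47 in control and 18 in *SIVA-WT*. Over 187 such genes the sum was 262 CPM (counts scaled to the library total), against 9.70 in control, 9.83 in *SIVA-WT* and 3.24 to 42.4 in the 9 libraries of the other lines. Of the 11 genes at least 4-fold above control in *SIVA-D160N* and under 2-fold in *SIVA-WT*, all but *APOL4* were of this kind. Of the 187 genes 0 were members, against 0.37% of all tested genes. *RNU4-1*, *RNU4-2* and *SNORD3A* passed the minimum of 50 counts through *SIVA-D160N* alone. Such genes could hardly meet a rule on both transfectants, so this count says nothing about the members. The part of this library's difference in the members' ratios was not tested.

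Set beside the other lines, the OVCAR8 members mostly did not repeat, and 5 of them stood the opposite way in MDA-MB-231. Of the 45 higher members, 24 were measured in MDA-MB-231 (at least 50 counts in 1 of its libraries). Both transfectants were at least 2-fold higher for *SIVA1* alone (4.17%), against 0.36% of the genes measured in both lines, and at least 2-fold lower for 5 (20.8%), against 0.452%. The 5 were *IL1A*, *IL1B*, *COL6A3* and the clone-named *AC112721.1* and *AC112721.2*. In HCC1954, 22 were measured, with *SIVA1* and the pseudogene *HSPD1P11* higher (9.09%, against 0.585%) and 0 lower (against 0.15%). In SKOV3, 32 were measured, with *SIVA1* higher (3.13%, against 0.64%) and *IL1A* lower (3.13%, against 0.889%). *SIVA1* was thus the only member at 2-fold in both transfectants of every line. It is the transfected gene, so its place in these shares follows from the design and is no repeat of the response. Apart from *SIVA1*, the only higher member that repeated at 2-fold in both transfectants was *HSPD1P11*, in HCC1954. The *SIVA1* counts in the control, *SIVA-WT* and *SIVA-D160N* libraries were 1272, 3193 and 2807 in MDA-MB-231 and 1985, 4741 and 4542 in SKOV3. In HCC1954 they were 0, 1646 and 930, which is at least 531-fold and 370-fold above a limit of 3 counts in control.

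*IL1A* was the member at 2-fold in opposite directions in more than one pair of lines, with OVCAR8 on one side and MDA-MB-231 and SKOV3 on the other. In MDA-MB-231 it had 1086 counts in control, 154 in *SIVA-WT* and 101 in *SIVA-D160N*. In SKOV3 it had 128, 32 and 17, and in HCC1954 it was nearly silent with 2, 1 and 0. Both transfectants thus stood below control in the 2 lines with appreciable *IL1A* other than OVCAR8, where both stood above. *IL1B* showed the same order, with 495, 124 and 127 counts in MDA-MB-231, 53, 43 and 16 in HCC1954 and 17, 3 and 2 in SKOV3. The OVCAR8 control had the lower *IL1B* level of the pair with MDA-MB-231, at 5.43 TMM-scaled CPM against 10.9, and the OVCAR8 transfectants the higher, at 38.5 and 32.2 CPM against 3.13 and 3.08.

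**Figure D4:**
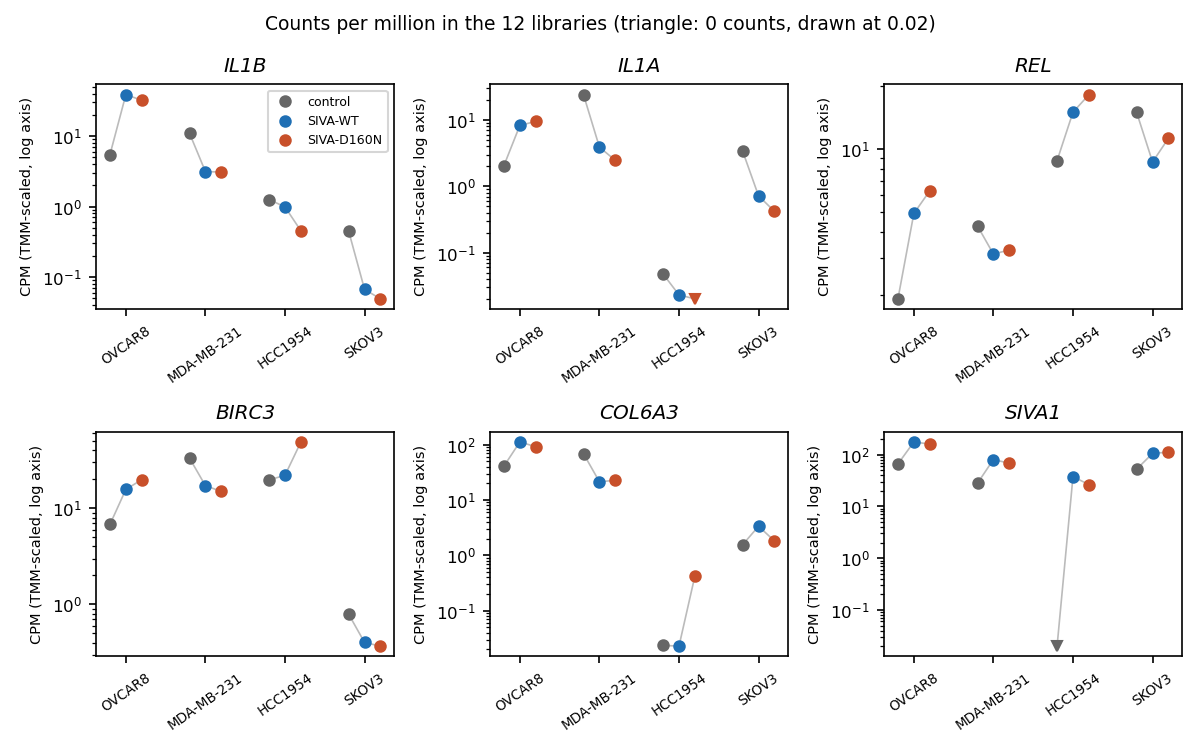
TMM-scaled CPM (log axis) of *IL1B*, *IL1A*, *REL*, *BIRC3*, *COL6A3* and *SIVA1* in the control (grey), *SIVA-WT* (blue) and *SIVA-D160N* (orange) library of each line. *IL1B* and *IL1A* are higher in both transfectants in OVCAR8 and lower in both in MDA-MB-231, and *IL1A* is also lower in both in SKOV3. *IL1B* in SKOV3 has under 50 counts in every library.

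The other 3 lines were fitted together with edgeR's quasi-likelihood test (9 libraries, a term for the line, mean of both transfectants against control), which did not use the OVCAR8 libraries. Of 18367 genes, 1 was called higher (0.00544%) and 1 lower (0.00544%) at a Benjamini-Hochberg adjusted p (FDR) under 0.05, and *IL1A* was the lower one. Its log2 fold change was -2.77 ± 0.22 (SE of the fit, n = 3 lines), with an adjusted p of 0.00958 by edgeR. The fit took the 2 transfectants of a line as separate observations, although they share 1 control. The SE and the adjusted p can therefore be too small for 3 lines. Both transfectants were lower in MDA-MB-231 and SKOV3, while HCC1954, with at most 2 counts, gave no direction. The call needed MDA-MB-231 and SKOV3. The adjusted p was 0.285 without MDA-MB-231, 0.121 without SKOV3 and 0.0495 without HCC1954 (edgeR). It was 0.198 for *SIVA-WT* alone and 0.0276 for *SIVA-D160N* alone (edgeR), and ranged from 1.98e-10 to 1.00 over the 10 alternatives tried. *IL1B* was lower by the same fit with a log2 fold change of -1.63 but did not pass (adjusted p 0.213, edgeR). *SIVA1*, the transfected gene, was higher with a log2 fold change of 2.07 and did not pass either (adjusted p 0.491, edgeR). Of 49 members that could be tested, 9 (18.4%) had an unadjusted p under 0.05, against 9.48% of all genes. Among the 9, *SIVA1*, *GDA* and *IFI27* went the same way as in OVCAR8. *IL1A*, *IL1B*, *IFIT2*, *AC112721.1*, *AC112721.2* and *KRT8P36* went the opposite way, so the share is not one of repeated changes.

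The remaining members of the NF-κB group also diverged by line. *BIRC3* had 1501, 679 and 615 counts in MDA-MB-231 (control, *SIVA-WT*, *SIVA-D160N*) and 829, 956 and 1723 in HCC1954, so it was lower in both transfectants of the former and higher in both of the latter. *REL* had log2 ratios of -0.44 and -0.38 in MDA-MB-231, 0.77 and 1.04 in HCC1954 and -0.78 and -0.41 in SKOV3. The whole NF-κB list, with 18 genes measured in MDA-MB-231, had median ratios of -0.78 and -1.08 there, and 7 of the 18 (38.9%) were at least 2-fold lower in both transfectants, against 0.452% of all genes measured in both lines. In HCC1954 the medians were 0.16 and 0.45, and in SKOV3 0.10 and 0.00077.

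*COL6A3* had 3098, 844 and 933 counts in MDA-MB-231, so both transfectants stood below control there. In SKOV3 it had 59, 150 and 74 counts. There *SIVA-WT* stood above control (log2 ratio 1.08, 0.66 to 1.57). *SIVA-D160N* (0.22, -0.29 to 0.74) did not separate from control by counting error. *AC112721.1* had 63, 165 and 157 counts in OVCAR8 and 84, 22 and 13 in MDA-MB-231, and *AC112721.2* had 86, 194 and 185 against 91, 18 and 14. The shared clone name places these genes on the same cloned segment, and their values ran in parallel in both lines. *CDH11* was above control in both transfectants of HCC1954 (708, 1398 and 998) and SKOV3 (281, 628 and 522) as well as OVCAR8, but under 2-fold in each. *ESM1* had 1488, 938 and 580 counts in SKOV3, the opposite order to OVCAR8.

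Over all measured higher members, the median ratios were -0.16 and -0.26 in MDA-MB-231, 0.57 and 0.74 in HCC1954 and -0.40 and -0.35 in SKOV3 (*SIVA-WT* and *SIVA-D160N*). The medians over all genes measured in both lines lay between -0.02 and 0.04. Transcript GC content moved with the ratios of these lines too. Its rho was -0.32 and -0.27 in HCC1954, 0.27 and 0.14 in SKOV3, and -0.03 and 0.01 in MDA-MB-231, and the part of this trend in the members' medians was not tested. Of the 5 lower members, 3 were measured in HCC1954, and *IFI27* (12446, 6224 and 2715 counts) and *RP5-1085F17.3* (191, 75 and 45) were at least 2-fold lower in both HCC1954 transfectants too (66.7%, against 0.15% of the genes measured in both lines). *GDA* had 4008, 2331 and 2245 counts in SKOV3, with ratios of -1.02 and -0.94 that straddle the threshold.

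**Figure D5:**
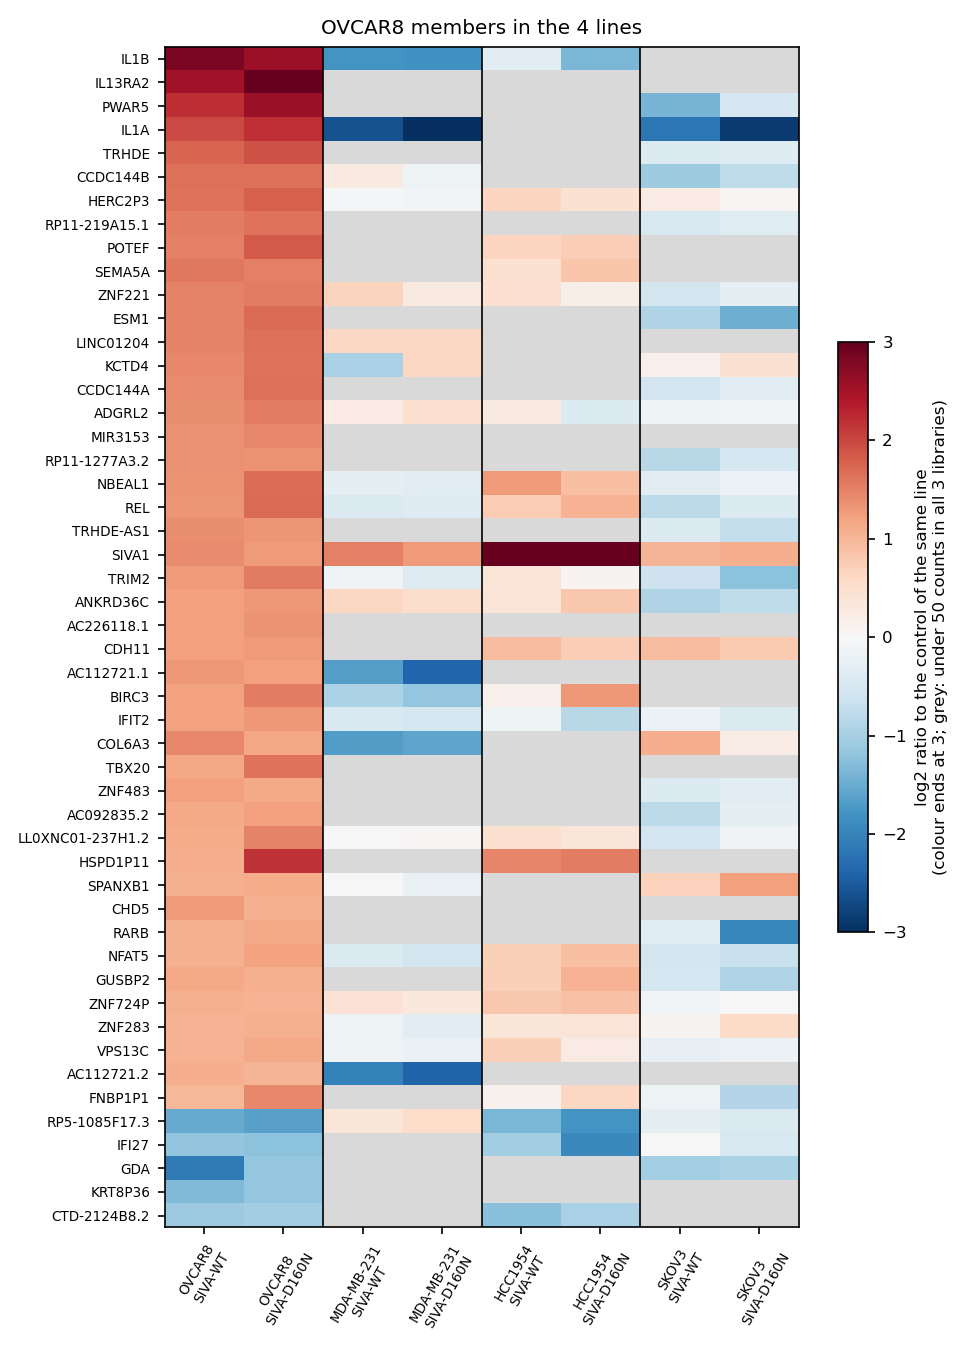
Log2 ratios of both transfectants to the control of the same line for the 50 members (rows) in the 4 lines (columns), red above and blue below control, grey where no library of that line had 50 counts. The OVCAR8 columns are uniform by the rule, and the other lines are mixed, with *SIVA1* above control in all 4 lines and *IL1A* and *IL1B* below it in MDA-MB-231.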

How the data were processed

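Polyadenylated RNA of 12 cell line libraries was sequenced in pairs of reads, 1 library per line and group. According to the submitters' processing notes the reads were aligned to GRCh38 with STAR 2.5.3a. The authors took gene counts from the alignments and deposited these counts without normalization for 57187 genes. The annotation release and the strand setting of the counting are not given in the sources used here. A deposited table of normalized values was not used. All 12 count columns were matched to a library by name, and 0 were left over.

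Log2 ratios to the control of the same line were computed from counts with TMM library sizes and a prior count of 2, for genes with at least 50 counts in 1 of the line's 3 libraries. Intervals are exact 95% binomial intervals for the ratio of a pair of counts. A count of 0 allows up to 3 counts, or 0.0663 to 0.0850 CPM per library, and intervals and limits cover counting error only. The other 3 lines were tested with edgeR 4.0.16 (glmQLFit and glmQLFTest, TMM, filterByExpr) in R 4.3.3, with the line as a block and p-values adjusted over all genes by the Benjamini-Hochberg method. Nothing in the labels says that the libraries came from repeated cultures, so the spread is not one between cultures. It is that between lines and, since the 2 transfectants of a line entered separately, between transfectants within a line. limma-voom (limma 3.58.1) and DESeq2 1.42.0 were alternatives. Transcript GC content and length are those of each gene's longest GENCODE transcript, and coordinates are RefSeq's on GRCh38.p14, matched by symbol for 84.0% of members and 96.0% of tested genes. The scripts were tested on simulated data of 3 lines and 18095 genes. Of genes changed by 1 on the log2 scale, 58 of 74 (78.4%) were called. All 62 genes changed by 2 and all 64 changed by 3 were called. The simulation also gave 31 false calls, so a gene called by this test can be a false call. Plots were made in Python 3.11.15 with matplotlib 3.10.9.

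The members, lists and alternatives were chosen with earlier results of these data known. The genes named are *SIVA1*, the 10 members of each direction with the largest smaller ratio, members at 2-fold in both transfectants of at least 2 other lines in the same direction or of at least 1 in the opposite direction, up to 4 members per gene list, and 3 genes on each side of the 2-fold threshold. Others were named after their values were seen, among them the Rel genes, the interleukin-1 system, *ADGRL2*, *ESM1*, *RARB*, *TRIM2*, *NBEAL1*, *VPS13C*, the zinc finger genes and the RNAs without a poly(A) tail.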

Additional observations from a re-analysis of the deposited data

Results flagged for a closer look

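A group of members stood at least 2-fold above control in both OVCAR8 transfectants and at least 2-fold below control in both transfectants of another line. With 1 library per group these differences between lines were not tested. The mean log2 ratio of the transfectants in OVCAR8 exceeded that in MDA-MB-231 by 5.02 for *IL1A*, 4.48 for *IL1B*, 3.28 for *AC112721.1*, 3.28 for *AC112721.2* and 2.94 for *COL6A3*. For *IL1A* it also exceeded that in SKOV3 by 4.61. *IL1B* in SKOV3 had 17, 3 and 2 counts, below the minimum of 50, and so was not compared there. The *IL1B* transcript has a GC content of 47.2% and the *IL1A* transcript 38.7%, beside a median of 47.8% over the tested genes, and the OVCAR8 control library enters every one of these differences.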

How the results depend on the processing

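The OVCAR8 counts depended on the thresholds more than on the scaling. With total counts, DESeq2 size factors or TMM over the OVCAR8 libraries only, 46 to 54 genes were higher and 4 or 5 lower, and all 45 higher members were kept under each of these 3 scalings. With a minimum of 10 counts 153 were higher and 63 lower, and with a minimum of 200 there were 21 and 1. At 1.5-fold there were 301 and 57, and at 3-fold 7 and 0. Requiring both counting intervals beyond 2-fold left 15 and 1. Settings added after the data were seen were single libraries and the centrings. The *SIVA-WT* library alone gave 62 and 21, and the *SIVA-D160N* library alone gave 103 and 27. Centring by transcript GC content gave 40 and 6, of which 37 and 4 were members, and centring by GC content and length gave 43 and 4. Without a minimum in the other line, 11 members in place of 6 stood 2-fold the opposite way in both transfectants of another line, counted per line. For the 15 named members tested, 75 of 75 ratios under other scalings and prior counts stayed within their counting interval.

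For the other 3 lines, edgeR called 2 genes, 1 of them a member. DESeq2 called 171 genes and 2 members (*IL1A* and *IL1B*), limma-voom 11 genes and 1 member, and the fit of all genes with 1 count 406 genes and 7 members. With no replicate block, that is without the term for the line, and with *SIVA-WT* alone, edgeR called 0 genes, with 15 and 460 genes at an unadjusted p under 0.05. Leaving out a line gave 0 to 1 genes and 0 to 1 members. The cause of these shifts was not tested. The *IL1A* log2 fold change stayed between -3.15 and -2.40 under the alternatives. At 1 library per group, a ratio within OVCAR8 cannot be set against the spread between cultures, and genes under 50 counts were not compared.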

Other observations

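Several lists leaned to one side of control in OVCAR8, most of them without a gene that met the 2-fold rule. Of all tested genes, 41.6% were below control in both transfectants and 37.4% above in both. Of 20 measured genes for chaperones and the unfolded protein response, 15 were below control in both transfectants and 2 above, with median log2 ratios of -0.15 in *SIVA-WT* and -0.17 in *SIVA-D160N*. Of 27 genes of the integrated stress response 17 were below and 3 above (medians -0.07 and -0.19), and of 26 DNA replication genes 16 were below and 6 above (-0.09 and -0.11). Other lists leaned as far, among them the 15 mitochondrially encoded genes, with 11 below and 3 above (-0.11 and -0.19), so the lean is not particular to stress or replication genes. Cadherins and protocadherins leaned the other way, with 9 of 16 above and 1 below (0.20 and 0.17). Of these, *CDH11* met the 2-fold rule (6.25%, against 0.333% of all genes). With *PCDH10*, 12.5% were at least 1.5-fold higher in both, against 2.23%. None of these lists had a gene at 1.5-fold below control in both, and the ratios share the trend with transcript GC content and length given in the report.

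*APOL4*, an apolipoprotein L gene, had 2 counts in control, 0 in *SIVA-WT* and 57 in *SIVA-D160N*, and so passed the minimum of 50 counts through *SIVA-D160N* alone. A U1 small nuclear RNA gene had 5, 1 and 574 counts. The few counts in control and *SIVA-WT* do not separate those libraries.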
